A study of Mus musculus with 10 samples.

Results

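The INT probes are one of the 7 kinds of oligonucleotide probe on a mouse splicing array. They were picked by name alone: a probe belonged to the set if its identifier was an event number followed by INT. This gave 3126 INT probes among 21882 probes, exactly 1 for each of 3126 alternative splicing events. RNA came from testis, brain, muscle, heart, liver, kidney, lung, spleen, intestine and salivary (named as in the labels) of mice of the CD1 strain, and each tissue was represented by a single pooled total RNA sample. The labels name no age, sex, treatment or number of animals in a pool, and no batch. Since each tissue had 1 array, no test between tissues was possible, and each difference given here describes these samples. In whole tissues, fewer cells of a type and less RNA per cell cannot be told apart. The deposited table names no genes, so the tissue labels could not be checked against marker genes, and probe sequences and genome positions are not given here.

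Most mammalian genes are transcribed with introns that are then removed, and an alternative exon is kept in some transcripts of a gene and left out of others. Exon-body probes lie inside an exon and report how much RNA holds that exon, whereas junction probes cross a splice site and report which exons were joined. On this array each event had 3 exon-body probes, named C1 and C2 for the flanking exons and A for the alternative exon, and 3 junction probes, C1:A, A:C2 and C1:C2. What an INT probe measures is not given in the sources used here, so its values are described by name. All values are in units of the deposited scale, which has no stated base and stops at 0.

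The INT probes were the dimmest kind in each of the 10 tissues. Their median was lowest in lung, at 1.07, and highest in kidney, at 1.41, with brain next at 1.32. The remaining tissues lay between 1.11 in liver and 1.23 in testis. By comparison, the tissue medians of C1 ran from 2.44 to 2.66, those of A from 2.15 to 2.33, and those of the skipping junction C1:C2 from 1.98 to 2.15. No tissue's INT median reached the lowest tissue median of any other kind. The order of the tissues within this narrow range depended on scaling: after quantile normalization salivary was highest, at 1.29, and brain lowest, at 1.15.

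The width of the INT distribution varied more than its centre. In kidney the middle 50% of INT probes spanned 0.949 units, from 0.936 to 1.88, and in brain 1.08 units. In muscle it spanned 1.52 units, from 0.500 to 2.02, and the spans in salivary, spleen and intestine were 1.49, 1.49 and 1.46. The lower quartile was thus higher in kidney and, at 0.799, in brain than in these 4 tissues. Kidney also had the highest lower quartile in A and in each junction kind, and brain in C1 and C2. The junction C1:A showed a smaller contrast of the same direction, with spans of 1.60 in kidney and 1.61 in brain against 1.71 in muscle, 1.76 in salivary, 1.76 in spleen and 1.79 in intestine. In C1 muscle (1.53), salivary (1.47) and spleen (1.50) were no wider than kidney (1.63).

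Being dim as a group did not make the INT values a separate range. Between 9.25% and 13.9% of C2 probes, 11.4% and 14.8% of C1 probes, and 18.0% and 22.9% of A probes, depending on the tissue, read below the INT median of the same array. Among junction probes this share reached 29.8%, for A:C2 in salivary. At the other end, the 95th percentile of the INT probes ran from 2.80 in liver to 3.40 in salivary, above the median of the C1 probes in each tissue.

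Within single events the INT probe was mostly, but not always, the weaker one. It was the lowest of the 7 probes in 42.7% of events in salivary and up to 50.1% in heart. It exceeded C2 in 13.9% (brain) to 21.9% (salivary) of events, C1 in 16.6% (kidney) to 22.6% (salivary), and A in 22.4% (brain) to 28.4% (salivary). The median difference between INT and the mean of the flanking exons was -1.13 in salivary and -1.36 in lung. In 1097 events the INT probe lay below C1, A and C2 in all 10 tissues. It lay above all 3 exon-body probes in at least 1 tissue in 733 events, and in all 10 tissues in 26 events. Muscle, salivary and spleen had the most events in which INT topped the exon bodies, with 359, 351 and 324, against 226 in kidney and 229 in brain.

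The brightest INT probe belonged to event Ben1947, and the same event had the INT probe farthest above its exon bodies. Its INT value was 6.11 in brain, 6.87 in heart, 6.54 in intestine, 5.88 in kidney, 5.26 in liver, 6.50 in lung, 6.50 in muscle, 5.99 in salivary, 5.94 in spleen and 6.04 in testis. Liver was lowest and heart highest. The exon bodies of Ben1947 were far lower, with C1 from 0.989 to 3.52, A from 1.58 to 4.33 and C2 from 2.95 to 3.79. C1 and A spanned a wider range over the tissues than INT, and C2 a narrower one. The INT probe exceeded the highest of them by 2.73 units on average over the tissues, and by 1.78 where the gap was smallest.

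The next brightest INT probe, that of event Ben845, varied little over the tissues, with an SD of 0.277. It read 4.88 in brain, 5.15 in heart, 4.59 in intestine, 4.67 in kidney, 4.54 in liver, 5.20 in lung, 4.92 in muscle, 5.19 in salivary, 4.87 in spleen and 4.45 in testis. Testis was lowest for INT and also for C1, A and C2, but the exon bodies were set further apart there: C1 was 2.49 in testis and 3.42 to 3.89 elsewhere. Event Ben1292 had the second largest excess of INT over its exon bodies, 2.32 units on average. Its INT probe read from 3.14 in liver to 4.12 in lung with a median of 3.81. Its A probe was listed at 0 in brain, intestine and lung and never passed 1.28, and C1:C2 was listed at 0 in 4 tissues. INT was the brightest of the 7 probes of this event in each tissue.

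Values of exactly 0 were more frequent among INT probes than among any other kind. Of the 31260 INT values 1712 were 0, or 5.48%, and these made up 37.7% of the 4536 zeros in the whole table. Kidney had the fewest INT zeros, 53, and liver the most, 260, followed by spleen with 253, salivary with 223 and heart with 195. Muscle had 167, brain 177, lung 140, intestine 132 and testis 112. The few zeros in kidney were not particular to INT. Kidney also had the fewest in C1 (7), A (16), C2 (5), A:C2 (26) and C1:C2 (11). In C1:A it had 21, next to 20 in muscle. Of the INT probes, 2372 were above 0 in all 10 tissues, 357 were at 0 in 1 tissue, 144 in 2, 97 in 3 and 82 in 5 or more. Probes at 0 in one tissue were dim in the others, where their median lay between 0.130 and 0.389 depending on the tissue, compared with 1.13 to 1.17 over all INT probes.

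The INT probe of Ben160 was the only one listed at 0 in all 10 tissues. The rest of its event was measured well. Its C1 probe read 4.78 in testis and 2.02 to 3.08 in the others, and its A probe 4.55 in testis and 0.380 to 2.29 in the others. All 6 exon and junction probes were highest in testis, while INT stayed at the floor.

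Most INT zeros, 1376 of 1712, came without another zero in the event. Another zero was still more frequent beside an INT zero than beside an INT value above 0. When INT was at 0, at least 1 of the other 6 probes of the event was at 0 in the same tissue in 336 of 1712 cases, 19.6%. When INT was above 0, this was so in 1739 of 29548 cases, 5.89%. In 20 combinations of event and tissue all 7 probes were listed at 0. They involved 19 events: 6 combinations were in salivary, 4 in heart, 4 in liver, 2 in kidney, 2 in muscle, 1 in brain and 1 in testis. There was no case in which the 6 exon and junction probes were at 0 and INT was not. In 18 of the 20 at least 1 of the 7 probes was low by the threshold described next.

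To find INT probes that set a tissue apart, each array was centred on its median and each value was compared with the median of the other 9 tissues. A deviation was called high or low from 2.11 units, which is 4 robust SDs of the deviations of all probes in all tissues. INT probes were rarely called. Over all tissues 149 INT deviations were high, 0.477% of those possible, and the share over all probes was 2.20%. Among the other kinds C1:C2 had the smallest share, 1.99%, and C2 the largest, 3.03%. The low share was 0.0352% for INT, 11 deviations, and 0.149% for all probes. Since values stop at 0, only 18.1% of INT values could have been called low at all, against 49.6% over all probes.

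INT probes also varied less from tissue to tissue. The median SD of a probe over the 10 tissues was 0.374 for INT and between 0.546 (C1:C2) and 0.656 (C2) for the other kinds. Counted by level, 1889 INT probes (60.4%) never exceeded the median of an array, 217 (6.94%) did so in all 10 tissues, and 1020 in some tissues only. For C1 these numbers were 257, 1058 and 1811.

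The high INT probes were spread unevenly. Testis had 32, spleen 31 and muscle 27, followed by kidney with 16, brain with 12, intestine with 11, salivary with 11, liver with 5, heart with 3 and lung with 1. The shares of all probes called high in these tissues were 5.90% in testis, 1.49% in spleen, 1.50% in muscle, 2.25% in kidney, 2.94% in brain, 1.62% in intestine, 0.836% in salivary, 3.45% in liver, 1.46% in heart and 0.585% in lung. Set against this background, INT was called in a smaller share in each tissue. In spleen the share was 0.992% and in muscle 0.864%. Testis and liver, which had the largest shares over all probes, had 1.02% and 0.160% among INT probes. A single tissue was involved for 88 INT probes, a pair of tissues for 29, and 3 tissues for 1. The order of the tissues by count depended on the processing. After quantile normalization spleen had 35 high INT probes, muscle 31, testis 23, salivary 16 and kidney 12. At 3 robust SDs testis had 58, kidney 43, spleen 38 and muscle 36.

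Most high INT probes were high without the rest of their event. In 120 of 149 cases, 80.5%, none of the 6 exon and junction probes of the event was high in that tissue. For comparison, 15.6% of 763 high C1 probes, 14.7% of 714 high A probes and 21.2% of 948 high C2 probes had no other exon or junction probe high. The 149 cases came from 118 INT probes, so some probes count more than once. Of the 120, 25 were in muscle and 28 in spleen, and the probes high in muscle were bright in spleen as well. At the 149 high INT deviations, whose median was 2.97, the median deviation was 0.07 for C1, 0.10 for A and 0.08 for C2. In testis, spleen and muscle, which had the most high INT probes, these medians lay between -0.13 and 0.03. They were larger in kidney, at 1.09 for C1, 0.64 for A and 0.82 for C2. The few probes in liver gave 0.75, 0.78 and 0.70, and those in heart 1.16, 0.44 and 0.92. The share of high INT probes with another high probe of the event also varied by tissue. In kidney 8 of the 16 high INT probes came with another high probe of the event, and in 3 all 7 were high. In testis another probe was high in 4 of 32, in spleen in 3 of 31 and in muscle in 2 of 27. Brain had 5 of 12, liver 2 of 5, heart 1 of 3, intestine 2 of 11, salivary 2 of 11 and lung 0 of 1. All 7 probes were also high in 2 cases in intestine and 1 in spleen.

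The 2 largest high deviations were both in testis. For event Ben690 INT read 7.02 in testis and 2.07 in brain, 1.66 in heart, 1.88 in intestine, 2.10 in kidney, 1.83 in liver, 1.76 in lung, 1.64 in muscle, 1.74 in salivary and 1.78 in spleen. Testis was 5.21 units above the median of the others after centring, and the other tissues lay within a narrow band. The exon bodies of Ben690 were well measured and did not set testis apart: C1 was 3.83 in testis and 3.11 to 4.32 over all tissues, A was 4.48 with a range of 2.53 to 4.50, and C2 was 3.48 with a range of 3.46 to 4.53.

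For event Ben299 INT read 5.85 in testis, a deviation of 5.14, and 1.37 in brain, 0 in heart, 2.32 in intestine, 1.10 in kidney, 0.294 in liver, 0.233 in lung, 0.703 in muscle, 1.67 in salivary and 0.626 in spleen. The other probes of Ben299 pointed to another tissue. C1, A and C2 were at 5.24, 5.69 and 5.92 in intestine, but at 0.817, 0.560 and 2.29 in testis, and all 3 were at 0 in heart. C1 was also high in salivary, at 6.21. Intestine had the second highest INT value, and testis was set apart by INT and by no exon body.

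The 32 INT probes high in testis were picked by their testis value, so its height and rank follow largely from the call. That value ran from 2.52 to 7.57 with a median of 5.40, and testis was the highest tissue in 31 of the 32. Medians of these 32 probes in the other tissues lay between 1.69 in muscle and 2.05 in brain. The median testis deviation of C1 in these events was 0.03, that of A -0.02 and that of C2 0.02, so flanking and alternative exons were on the whole at the level of the other tissues.

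Low INT deviations were few. They were found in heart (5), salivary (5) and liver (1), where the shares of all probes called low were 0.201%, 0.215% and 0.0914%. In the other tissues no INT probe was low, and the shares over all probes were 0.297% in brain, 0.0548% in intestine, 0.0548% in kidney, 0.0366% in lung, 0.0914% in muscle, 0.192% in spleen and 0.251% in testis. Of the 11, 8 were values listed at 0. In 6 of the 11 all 7 probes of the event were at 0: the 5 in salivary and the 1 in liver, and none in heart. At least 1 other probe of the event was also called low in 6 of the 11, but not in the liver case. The lowest was INT of Ben883 in salivary. It read 0 there, 3.99 in brain, 3.16 in heart, 3.64 in intestine, 3.38 in kidney, 3.18 in liver, 4.88 in lung, 3.74 in muscle, 3.59 in spleen and 5.24 in testis. C1 of Ben883 was also at 0 in salivary and ran from 2.02 to 5.70 elsewhere, and the other 5 probes were at 0 in salivary too. In each of the other 9 tissues all 7 probes were above 0.

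The second lowest was INT of Ben2695 in liver, at 0, whereas it read 2.79 in brain, 1.74 in heart, 2.94 in intestine, 3.06 in kidney, 3.40 in lung, 3.38 in muscle, 3.15 in salivary, 3.36 in spleen and 2.78 in testis. Again all 7 probes of the event were at 0 in liver. INT was brighter than C1, A and C2 of Ben2695 in most tissues, but not in heart or kidney, where A read 3.24 and 3.23. Because zeros have no measured size, the deviations of -3.53 for Ben883 and -2.99 for Ben2695 set no order.

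The relation of INT to its own event was weak. Across the 3126 events of a tissue, the INT deviation correlated with the C1 deviation at a median r of 0.16 over the tissues, from 0.12 in heart to 0.24 in intestine. With A the median was 0.17 (0.10 in muscle to 0.25 in intestine) and with C2 0.16 (0.11 in muscle to 0.25 in intestine). The junction probes gave medians of 0.16 each. C1 and C2 of the same event correlated at a median of 0.72. These are descriptions across events, which share their array and are not replicates. None of the 6 partner probes stood out, with medians for the 6 between 0.16 and 0.17.

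Event by event, the 10 centred values of INT correlated with those of C1 at a median r of 0.15, with quartiles of -0.15 and 0.46. For A the median was 0.19 and for C2 0.16, compared with 0.83 between C1 and C2 and 0.71 between C1 and A. An r of at least 0.8 with C1 was reached by INT in 125 events and by C2 in 1685 events. Even among the 625 INT probes that varied most over tissues, with a median SD of 0.628, the median r with the mean of C1 and C2 was 0.21.

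INT values were next set against the readings of the flanking exons. Readings of different probes are not comparable as abundance, so the bins below order events only by these readings. In each tissue the events were ordered by the average of their flanking exons and split into 10 bins of about 313. Between the second bin from the bottom and the top bin, the flank median differed by 2.52 to 3.89 units over the tissues. That difference is set by the ordering. The A median differed by 1.63 to 3.51 and the INT median by 0.17 to 0.57. From the bottom bin to the top bin the differences were 2.18 to 3.90 for A and 0.40 to 0.69 for INT. INT was dimmest in the bottom bin, with medians of 0.737 to 1.07, against 1.29 to 1.59 in the top bin. The share of INT probes at 0 was larger in the bottom bin in all tissues, with the widest gap in spleen, 15.0% against 3.51%, and the narrowest in kidney, 3.51% against 1.28%. Over the events' means across tissues, INT and the flanks correlated at 0.10, and C1 and C2 at 0.55.

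Transcripts set apart in a tissue were examined next. The mean of C1 and C2 was called high, from 2.15 units, in 699 combinations of event and tissue, 2.24% of all. There the flanks were higher by a median of 2.76, a value set by the call, and A by 2.37 and INT by 0.24. INT was above the median of the other 9 tissues in 67.2% of these combinations and in 49.6% of the rest, and it was itself called high in 17 of the 699, 2.43%, against 132 of the remaining 30561, 0.432%. Of the 17, 7 were in kidney. The median INT deviation in high transcripts was positive in all tissues. It was 0.48 in salivary (25 events), 0.46 in kidney (76 events), 0.42 in intestine (59 events), 0.18 in testis (210 events), 0.15 in spleen (28 events) and 0.10 in liver (119 events). The INT probes of the remaining events also had medians away from 0, such as 0.11 in salivary and -0.07 in intestine. Relative to those, the difference was 0.50 in intestine, 0.37 in kidney, 0.36 in salivary, 0.18 in testis, 0.16 in liver and 0.12 in spleen. Liver and testis had the most high transcripts, and there A was higher by medians of 2.64 and 2.86.

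INT was then set against exon inclusion. The skipping junction was subtracted from the average of both inclusion junctions to give a junction index, and the average flank from A to give a body index. An exon was called where the first deviated by at least 1.61 units and the second had the same sign. INT enters neither. At 251 calls of more inclusion, 0.803% of those possible, the median INT deviation was 0.06 with quartiles of -0.33 and 0.43. At 343 calls of more skipping, 1.10%, it was 0.09 with quartiles of -0.23 and 0.44. INT was called high in 3 of the former (1.20%), in 1 of the latter (0.292%) and in 145 of the 30666 combinations without an exon call (0.473%). Without the events whose flanks were high, the medians were 0.03 and 0.05. In each tissue the INT deviation correlated with the deviation of the junction index at -0.05 to 0.04.

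Finally, INT probes were compared directly between tissues. Muscle and spleen were the closest of the 45 pairs, with a correlation of 0.942 across the INT values and a median absolute difference of 0.174 units. Next were lung and salivary by correlation, at 0.913, and intestine and lung by difference, at 0.229. The pair farthest apart by difference was kidney and muscle, at 0.490, and by correlation kidney and spleen, at 0.655. Averaged over its 9 pairs, the correlation was lowest for kidney, 0.696, and highest for lung, 0.828. Only 3 INT probes differed between muscle and spleen by 2.11 units or more, whereas the median over pairs was 35.

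In the other probe kinds muscle and spleen were near each other too, but not the closest pair. By correlation across probes they ranked 10 of 45 for C1, 8 for A and for C2, 5 for C1:A and for A:C2, and 3 for C1:C2. By median absolute difference they ranked 2 for C1, for A and for each junction, behind lung and salivary, and 7 for C2. Their median difference in C1 was 0.357, against 0.289 for lung and salivary. In C1, 92 probes differed between muscle and spleen by 2.11 units or more, where the median pair had 160 and the lowest, heart and muscle, 51. The small INT difference was seen over most of the range of brightness. In the brightest 625 INT probes, with a median level of 2.57, muscle and spleen differed by a median of 0.147, where the median pair differed by 0.417. In the 625 probes around the middle of the range, the values were 0.211 and 0.392.

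The INT probes high in muscle were bright in spleen as well. The 27 probes, picked by their muscle value, read from 2.81 to 6.43 in muscle, with a median of 3.93. In spleen they read from 2.89 to 6.52, with a median of 3.91. Muscle and spleen differed by a median of 0.115 and by at most 0.279 in these probes. In the other 8 tissues their medians ran from 0.294 in lung to 1.23 in brain, and both muscle and spleen exceeded all 8 in each of the 27. Muscle was the highest of all tissues in 1 of the 27. The exon bodies of these events were on the whole at the level of the other tissues in muscle. Their median deviations were 0.00 for C1, -0.02 for A and -0.13 for C2. Single events departed from this, with deviations of -0.97 to 1.54 for C1, -0.84 to 2.31 for A and -0.84 to 1.92 for C2. The comparisons of muscle and of spleen with the remaining tissues share 8 samples, so their counts of 27 and 31 are not independent. Of the 27, 14 were listed at 0 in some other tissue. Without INT probes that have a 0 in any tissue, 13 were high in muscle and 16 in spleen. In testis 26 of 32 were left.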

How the data were processed

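The authors deposited one processed score per probe and sample, 21882 probes by 10 samples, on a compressed scale from arrays with exon-body and junction probes, per the labels. Its base, the scanner, the background correction and any normalization between arrays: not given in the sources used here. Array medians lay between 2.04 and 2.19. Levels are given as deposited. For deviations every array was first centred on its median over all probes, and the median of the remaining 9 tissues was then subtracted. The threshold of 4 robust SDs (median absolute deviation times 1.4826) was computed over all probes. With 1 array per tissue no test was run, and precision is limited by the number of arrays. No 2 INT probes had identical values; probes that share sequence could not be told apart. Probes were named by a rule: the 2 highest and 2 lowest deviations, the 2 highest means, the 2 largest excesses over the exon bodies, and the probe at 0 most often. The probe kind and the lists were chosen with earlier results of these data known. The scripts that call deviations were tested on simulated arrays. Python 3.11.15, numpy 2.4.6, pandas 2.3.3 and scipy 1.17.1 were used.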

Additional observations from a re-analysis of the deposited data

How the results depend on the processing

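No paired analysis was possible because the tissues have 1 array each. The alternatives were quantile normalization, columns as deposited, centring on the INT median, filters on low values and on zeros, the mean in place of the median of the other tissues, single tissues dropped from that median, other thresholds and Spearman correlation. The cause of a shift was not tested, except that a threshold or a stricter filter changes counts by construction. Low signal is one limit, since 754 INT probes are at 0 in at least 1 tissue and only 18.1% of INT values could have been called low.

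After quantile normalization the INT medians were 1.15 in brain, 1.18 in intestine, 1.20 in kidney, 1.15 in lung, 1.29 in salivary, 1.25 in spleen and 1.18 in testis. With arrays centred on their median they were 1.24 in brain, 1.06 in intestine, 1.35 in kidney and 1.23 in salivary. The filter on the lowest 25%, set over all probes, kept 1313 of the 3126 INT probes. Counts under it thus come from fewer probes and are not comparable with the main counts as shares. High INT deviations numbered 95 without the lowest 25% of probes, 291 with the threshold of 1.59 units from INT probes alone, 293 at 3 robust SDs and 62 at 6. Low ones numbered 37 with the INT threshold, 39 at 3 robust SDs, 1 at 6, and 3 without INT probes that have a 0. With single tissues dropped from the median of the others, 141 to 166 were high and 8 to 12 low. Without the lowest 25% of probes the median r over tissues of each event was 0.110 with C1, 0.132 with A and 0.0971 with C2. The correlation of muscle and spleen after centring each INT probe on its mean was 0.66, and 0.591 without INT probes that have a 0 and 0.518 by Spearman; muscle and spleen had the highest correlation of INT levels in every setting run. INT probes high in kidney numbered 10 with centring on the INT median and 7 without the lowest 25% of probes, and high in muscle and spleen 13 and 15 under that filter.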
